A study of Mus musculus with 6 samples.

Results

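The unfolded protein response genes comprise 32 genes that sense, transmit or answer protein folding stress in the endoplasmic reticulum (ER). They were chosen by symbol, with earlier results of these data known, among the 53735 gene rows of an RNA-seq count table of mouse aorta. By the arm that each is best known for, 16 belong to the ATF6 arm, 9 to the XBP1 arm and 7 to the PERK-ATF4 arm, although several ER genes answer to both ATF6 and XBP1. The study compared mice lacking the long noncoding RNA Mymsl (Mymsl KO) with wild-type mice (Mymsl WT), 3 libraries each. Per the labels, RNA was taken from purified smooth muscle cells of the medial layer. The sources used here do not give strain, age, sex, the knockout allele or whether animals were pooled, so p-values measure only the spread between these libraries.

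The ER folds the secreted and membrane proteins of the cell, which in aortic smooth muscle include collagens and elastic fibre proteins. When unfolded proteins build up there, the chaperone BiP (Hspa5) leaves the membrane sensors ATF6, IRE1 (Ern1) and PERK (Eif2ak3). ATF6 moves to the Golgi, where the proteases encoded by Mbtps1 and Mbtps2 cut it and free a transcription factor that induces ER chaperones. IRE1 splices Xbp1 mRNA, which then encodes a factor for folding and ER-associated degradation genes. PERK phosphorylates the initiation factor eIF2, which slows translation in general and raises that of Atf4, whose targets include the stress factor CHOP (Ddit3). Counts per gene do not separate spliced from unspliced Xbp1, cleaved from whole ATF6, or active from inactive PERK.

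Total counts per library were 23506674 to 25521123 in WT and 20048216 to 23243129 in KO. Every KO total thus lay below every WT total (exact permutation p = 0.1). Mitochondrially encoded genes took 5.66% to 9.02% of counts in WT and 10.003% to 18.9% in KO, with the highest share in KO replicate 1. The exact permutation p of this mitochondrial difference was also 0.1, the smallest that 3 against 3 libraries allow. No row carried the name Mymsl (0 rows), so the targeted gene was not checked under its own name. With edgeR's quasi-likelihood test and Benjamini-Hochberg adjustment, 1 of 14145 tested rows passed an adjusted p of 0.05, a clone-named row (RP23-57D10.3) counted 314, 378 and 273 times in the WT libraries and 0 times in every KO library. Smooth muscle markers (6 of 6 above 1 CPM, counts scaled to the library's size) summed to 48496 to 51829.8 CPM in WT and 40076.5 to 53935 in KO. Markers of adventitial fibroblasts, which also secrete matrix, summed to 1506, 869 and 1407 CPM across the WT libraries and to 1955, 850 and 1589 CPM across the KO libraries. Values per library always stand in the order of replicates 1, 2 and 3. Of 6 plasma and B cell markers, 5 stayed below 1 CPM in every library, the exception being Sdc1. Heart muscle markers summed to 50.1 CPM in KO replicate 1 and 13.2 to 19.4 CPM in the other libraries. Schwann cell markers summed to 31.98 CPM in KO replicate 1 and 10.6 to 16.8 CPM elsewhere. Their part in the results was not tested. In bulk RNA, fewer cells of a type and less RNA per cell cannot be told apart.

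All 32 genes had a row and passed the filter on low counts. None passed the adjusted threshold in edgeR (0 higher, 0 lower), where 0.00707% of all tested rows were called lower and 0% higher. At an unadjusted p under 0.05, 4 were lower in KO (12.5%, against 7.76% of all tested rows) and 1 was higher (against 6.8%). KO and WT libraries did not overlap for 7 genes with lower KO values (21.9%, against 11.3% of all tested rows) and for 1 with higher values (against 10.5%). DESeq2 called 1 of the 28 members to which it gave an adjusted p, Atf6, as lower (against 1.49% of its rows), and 0 as higher (against 0.728%). Of the 32 log2 fold changes, 20 lay below 0, with a median of −0.083, while 47.5% of all tested rows lay below 0, with a median of 0.012. By arm the medians were −0.13 for the ATF6 arm (12 of 16 below 0), −0.096 for the XBP1 arm (6 of 9) and 0.037 for the PERK-ATF4 arm (2 of 7). Without KO replicate 1, the library with the highest mitochondrial share, 9 members had non-overlapping lower values, against 14% of all tested rows. Without WT replicate 2, which was the lowest library for 13 of the 32 genes, the count was 15, against 16.9%.

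**Figure D1:**
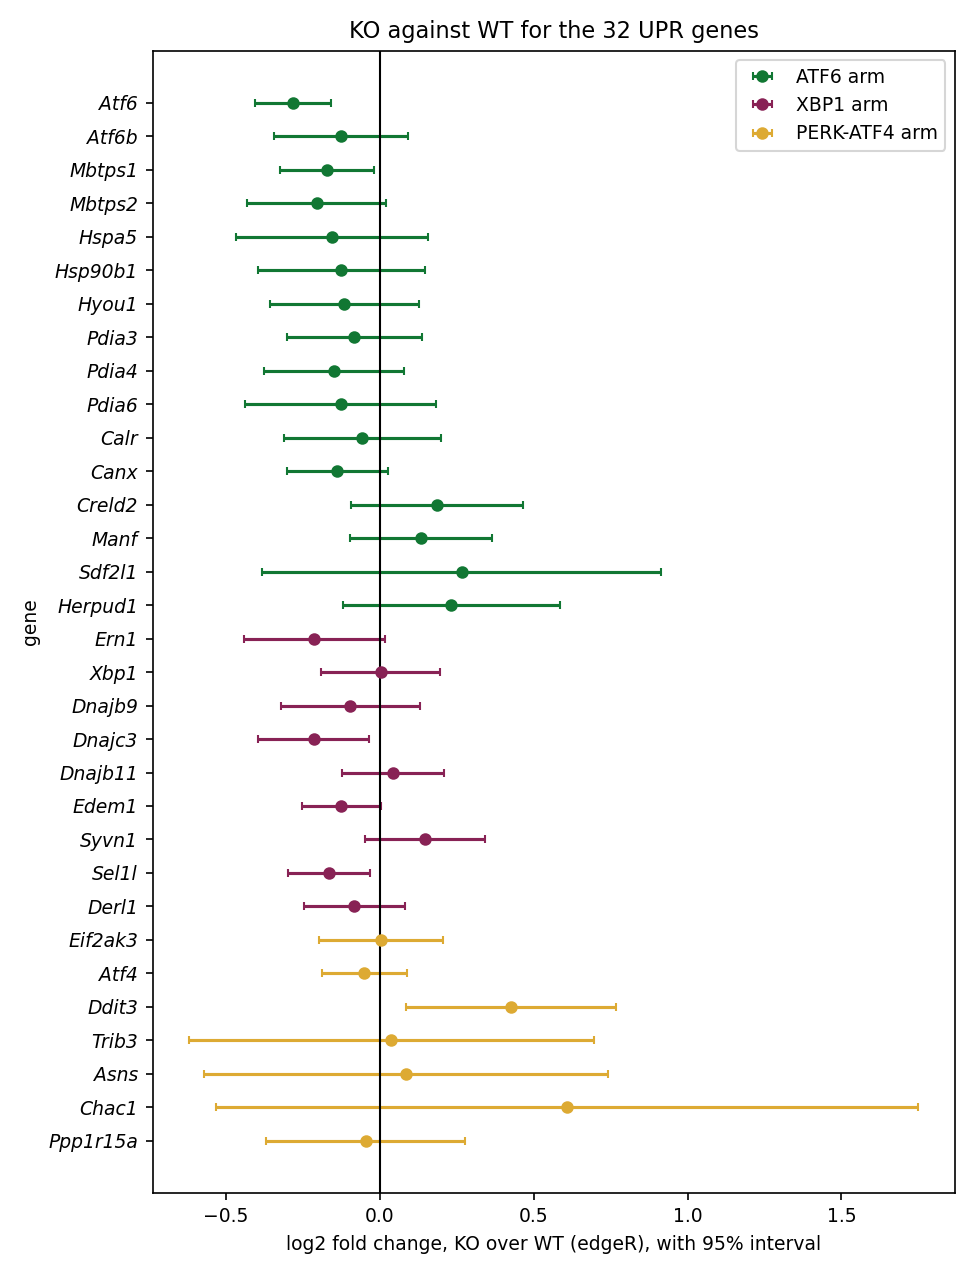
Log2 fold change of each gene, KO over WT, from edgeR (x axis) with its 95% interval, by gene (y axis) and coloured by arm. The interval lies wholly below 0 for Atf6, Mbtps1, Dnajc3 and Sel1l and wholly above 0 for Ddit3, and is widest for Chac1, a gene near 1 CPM.

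Per exon length, the folding machinery led. Levels in CPM per kilobase of exon (GENCODE M21 exons) were highest in WT for the lectin chaperone Calr (206 ± 29.1, SD, n = 3), followed by the disulfide isomerase Pdia3 (164 ± 18.9), the chaperones Hsp90b1 (136 ± 21.3) and Hspa5 (126 ± 23.0), and the lectin chaperone Canx (83.1 ± 4.79). Of these neighbours only Hsp90b1 and Hspa5 differed by less than the larger SD of the pair. Atf4 came sixth on this scale at 56.5 ± 1.35, the highest of the transcription factors, with Xbp1 at 37.4 ± 3.39 and Ddit3 at 15.1 ± 2.49. Among the sensors, Atf6b had 22.8 ± 2.17, Atf6 9.48 ± 0.0746, Ern1 3.97 ± 0.263 and Eif2ak3 3.89 ± 0.164 CPM per kilobase. The length joins the exons of all annotated transcripts (9231 bases for Atf6, 2757 for Atf6b), so the order depends on it. In CPM without this division, the WT mean of Atf6 (87.5) lay above that of Atf6b (62.9). The stress-inducible ATF4 targets Trib3 (0.841 ± 0.268), Chac1 (0.623 ± 0.0992) and Asns (0.480 ± 0.128) were the lowest of all 32 in WT, each with 14 to 59 counts per library.

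**Figure D2:**
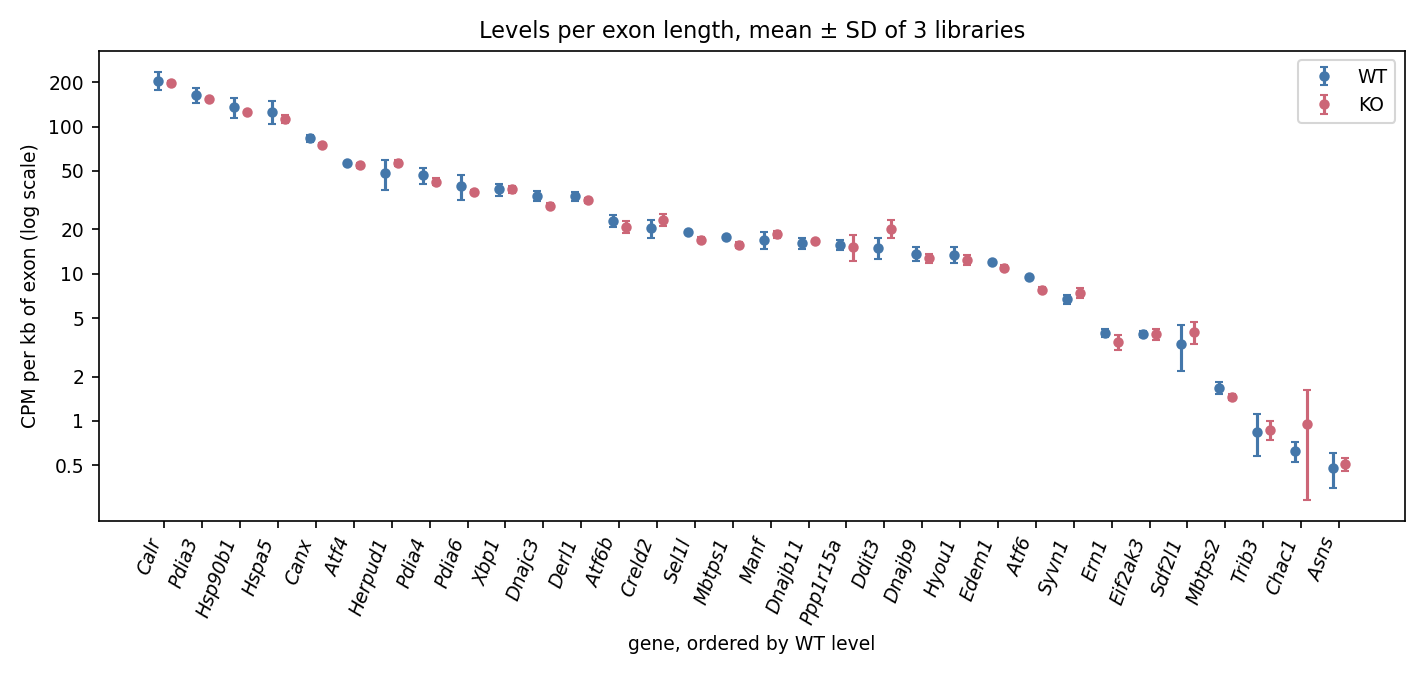
Mean level per exon length in CPM per kilobase (y axis, log scale) of each gene (x axis, ordered by WT level), for WT and KO, with bars of ± SD over 3 libraries. Levels run from 206 for Calr down to 0.480 for Asns in WT, the KO point of Atf6 lies below its WT bar, and that of Ddit3 above it.

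ATF6 and XBP1 are known to act through an element found in promoters of ER chaperone genes, so its copies among these genes are shown here. The ER stress response element (ERSE) consists of CCAAT and CCACG separated by 9 bases. Windows from 250 bases before to 50 bases after the start of transcription were available from RefSeq (GRCm38.p6) for 28 of the 32 genes, all but Atf6, Hyou1, Manf and Derl1. On either strand, an exact ERSE was found in 8 of these 28, of which 6 belong to the ATF6 arm and 2 to the XBP1 arm, and in 0.119% of all 32851 windows of that length. Among 9789 tested genes with a window, 17 held one, these 8 included. The matches are printed on the strand where CCAAT comes first, with 6 bases on each side and the motif letters in capitals. Hsp90b1 holds 2, on opposite strands.
Hspa5, chr2:34772019-34772049, plus strand: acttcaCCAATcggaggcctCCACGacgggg
Hsp90b1, chr10:86705632-86705662, minus strand: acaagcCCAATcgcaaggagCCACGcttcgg
Hsp90b1, chr10:86705527-86705557, plus strand: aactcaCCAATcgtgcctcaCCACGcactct
Calr, chr8:84847069-84847099, plus strand: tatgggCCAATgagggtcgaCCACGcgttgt
Canx, chr11:50325794-50325824, minus strand: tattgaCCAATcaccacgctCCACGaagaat
Pdia6, chr12:17266485-17266515, plus strand: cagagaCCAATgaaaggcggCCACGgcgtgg
Creld2, chr15:88819514-88819544, minus strand: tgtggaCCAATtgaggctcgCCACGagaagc
Dnajc3, chr14:118937821-118937851, plus strand: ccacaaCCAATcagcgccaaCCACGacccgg
Syvn1, chr19:6046526-6046556, plus strand: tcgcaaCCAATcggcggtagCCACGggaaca

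The second form, ERSE-II (ATTGG and CCACG separated by 1 base), was found in Herpud1 and Dnajb11, against 0.0365% of all windows. Capitals again mark the motif letters.
Herpud1, chr8:94386371-94386393, plus strand: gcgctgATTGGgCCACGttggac
Dnajb11, chr16:22857846-22857868, plus strand: gcggcgATTGGcCCACGcctggc

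Searched in the same windows and on both strands, the UPR element core, in the exact letters TGACGTGG, matched 0 of the 28 (0.676% of all windows). The Hspa5 window holds TGACGTGA, which differs in the last letter and was not counted. Nor was ggacgtgg in the Pdia6 window, which differs in the first letter. The ATF4 composite element, in the exact pattern searched (TGATG and AAT separated by 1 base), also matched 0 of the 28 (0.965%). The Asns window holds tgatgaaac, which differs from this pattern only in the last letter and was not counted. The Chac1 and Herpud1 windows hold gttgcatca, which differs in the same way when read on the other strand. Chac1 also holds tgacgcaat and Trib3 tggtgcaat, each with another letter changed. These near matches are examples, and others were not listed. The 0 therefore describes the exact letters only and does not show that ATF4 targets lack the element. Such matches describe letters and were not tested for binding. In Hspa5 the ERSE ends 47 bases upstream of the start, and in Herpud1 the ERSE-II ends 42 bases upstream. The ERSE-II of Dnajb11 lies downstream of the start, in the last 50 bases of the window. The upstream parts of the windows of the chaperone genes Hspa5 and Hsp90b1, and of Herpud1, which unlike them was highest in WT replicate 2, are given for the 250 bases before the start, 5′ to 3′ in the direction of the gene, with the letters of both elements in capitals.
Hspa5, chr2:34771840-34772089, plus strand: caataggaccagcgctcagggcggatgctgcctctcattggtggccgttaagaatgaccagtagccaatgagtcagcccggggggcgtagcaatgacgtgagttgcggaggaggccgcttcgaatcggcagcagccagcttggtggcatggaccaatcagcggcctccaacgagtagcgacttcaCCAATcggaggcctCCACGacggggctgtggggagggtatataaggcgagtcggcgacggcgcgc
Hsp90b1, chr10:86705445-86705694, minus strand: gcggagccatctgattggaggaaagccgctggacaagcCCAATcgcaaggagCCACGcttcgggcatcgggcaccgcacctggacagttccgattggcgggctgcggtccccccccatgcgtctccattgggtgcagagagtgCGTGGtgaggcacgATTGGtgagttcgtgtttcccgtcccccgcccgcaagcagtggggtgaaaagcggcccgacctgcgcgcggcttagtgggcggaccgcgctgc
Herpud1, chr8:94386179-94386428, plus strand: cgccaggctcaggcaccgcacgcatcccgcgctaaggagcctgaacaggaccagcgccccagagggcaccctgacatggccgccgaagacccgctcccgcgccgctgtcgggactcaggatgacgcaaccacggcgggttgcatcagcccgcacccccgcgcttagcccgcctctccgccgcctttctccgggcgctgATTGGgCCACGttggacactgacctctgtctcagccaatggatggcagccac

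Among the sensors and among all 32 genes, Atf6 had the smallest p. Atf6 (chromosome 1, 170704674 to 170867771, minus strand, GRCm38) measured 87.0, 87.1 and 88.3 CPM in the WT libraries and 69.6, 74.6 and 71.7 CPM in the KO libraries. The WT libraries lay within 1.23 CPM of each other and every KO library lay below them. The log2 fold change was −0.28 ± 0.053 (SE; 95% interval −0.41 to −0.16), which is 17.8% lower in KO. By p-value Atf6 ranked 39 of 14145 rows in edgeR (adjusted p = 0.239), so it did not pass, while it passed in DESeq2 (adjusted p = 0.0232). Over the 6 single left-out libraries its log2 fold change lay between −0.31 and −0.26. Its paralogue Atf6b, also a cleaved membrane factor, measured 64.7, 56.2 and 67.8 CPM in WT and 53.6, 63.7 and 55.5 CPM in KO. These ranges overlapped (log2 fold change −0.13 ± 0.094, adjusted p = 0.535 in edgeR). A test of the difference between the changes of Atf6 and Atf6b was not made.

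Ern1, the kinase and RNase that splices Xbp1, measured 30.1, 32.9 and 34.4 CPM in WT and 31.6, 25.5 and 27.0 CPM in KO. KO replicate 1 lay inside the WT range and the other KO libraries below it (log2 fold change −0.21 ± 0.099, adjusted p = 0.363 in edgeR). The PERK gene Eif2ak3 measured 22.5, 23.4 and 24.4 CPM in WT and 24.6, 21.2 and 24.7 CPM in KO, which overlapped. Its log2 fold change of 0.0037 had a 95% interval from −0.20 to 0.20.

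Mbtps1 and Mbtps2 encode the Golgi proteases that cut ATF6 and also the sterol factors SREBP. Both had lower KO values that did not overlap the WT values, as did 11.3% of all tested rows. Mbtps1 (chromosome 8, 119508156 to 119558735, minus strand) measured 186, 181 and 191 CPM in WT and 155, 170 and 171 CPM in KO. That is a gap of 10.6 CPM between the nearest libraries and a log2 fold change of −0.17 ± 0.065 (adjusted p = 0.308 in edgeR). Mbtps2 (chromosome X, 157535371 to 157598715, minus strand) measured 18.6, 16.8 and 15.5 CPM in WT and 13.9, 14.9 and 15.4 CPM in KO. Its groups touched, with 0.13 CPM between WT replicate 3 and KO replicate 3 (log2 fold change −0.20 ± 0.097, adjusted p = 0.371 in edgeR). Yy2, a gene inside the Mbtps2 locus on the same strand, shares 2867 exon bases with it and had 0 counts, so reads there may have been left out of the Mbtps2 count.

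**Figure D3:**
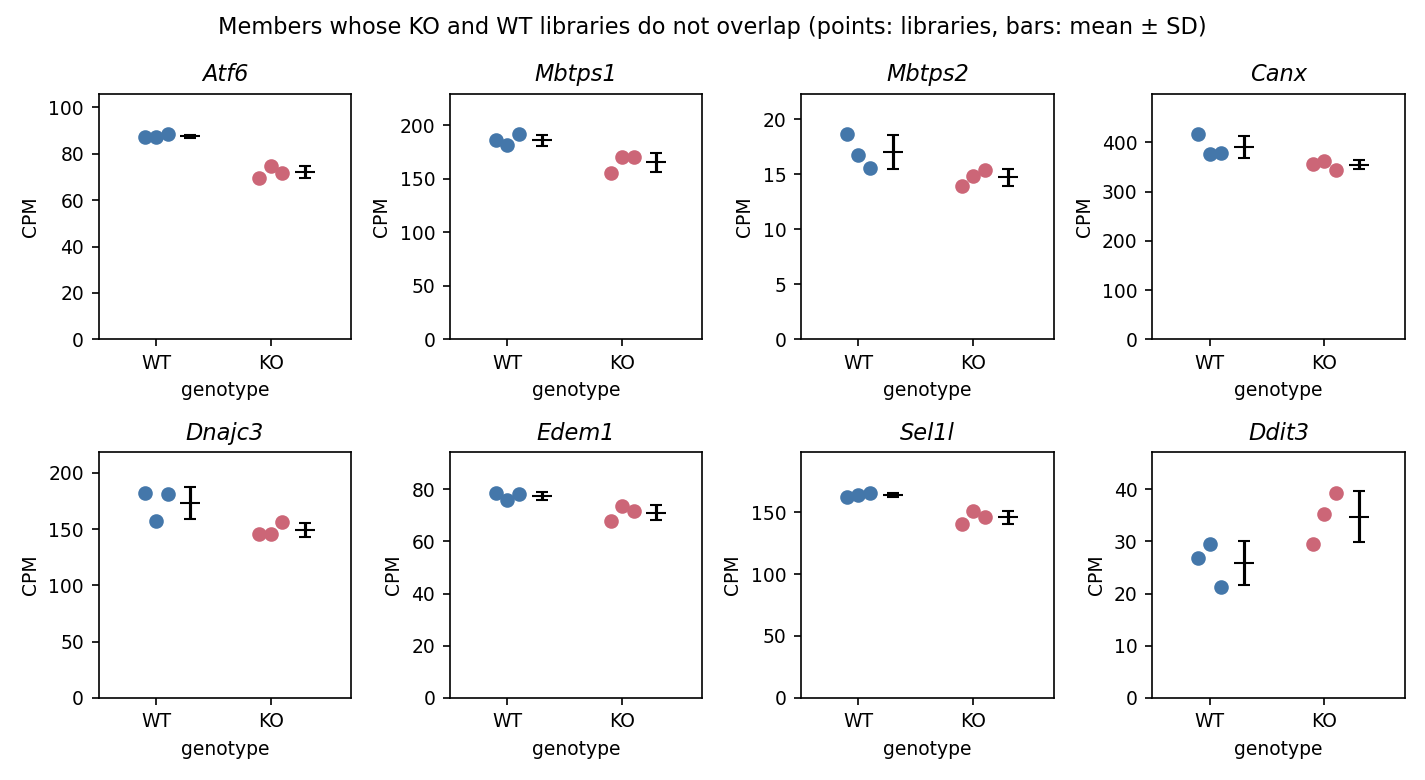
Level in CPM (y axis, from 0) by genotype (x axis) for the 8 genes whose 3 KO and 3 WT libraries do not overlap. Points are libraries in the order of replicates 1 to 3 and black bars are mean ± SD. Atf6 has the tightest WT points (87.0 to 88.3), and Ddit3 is the gene with higher KO points (29.6 to 39.3).

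Log2 fold changes of the transcription factors Xbp1, Atf4 and Ddit3 ran from −0.051 to 0.43. Xbp1 measured 130, 109 and 125 CPM in WT and 114, 123 and 127 CPM in KO, all KO values inside the WT range. Its log2 fold change was 0.0019 ± 0.083, with a 95% interval from −0.19 to 0.20. Atf4 measured 137, 132 and 131 CPM in WT and 134, 128 and 124 CPM in KO, which overlapped (−0.051 ± 0.059, interval −0.19 to 0.09). Ddit3, which encodes the pro-apoptotic factor CHOP (chromosome 10, 127290774 to 127296288, plus strand), measured 26.8, 29.5 and 21.2 CPM in WT and 29.6, 35.2 and 39.3 CPM in KO. The groups only just separated: KO replicate 1 exceeded WT replicate 2 by 0.0324 CPM. Its log2 fold change was 0.43 ± 0.146 (interval 0.09 to 0.77), the highest among members above 5 CPM, and it did not pass (adjusted p = 0.279 in edgeR, 0.147 in DESeq2). The annotation used has another model of Ddit3 at its start, and Mars on the other strand shares 68 exon bases with it, so its count depends on how such reads were assigned. Early response genes, 8 genes that rise during tissue handling, summed to 617, 677 and 922 CPM in WT and 660, 346 and 1297 CPM in KO. KO replicate 3 was highest in both this sum and Ddit3, while KO replicate 2 had the lowest sum and WT replicate 3 the lowest Ddit3. Endothelial markers summed to 304, 271 and 220 CPM in WT and 290, 232 and 464 in KO. Adipocyte markers summed to 64.5, 35.9 and 28.9 CPM in WT and 33.1, 37.3 and 82.9 in KO. Like Ddit3, both sums were highest in KO replicate 3 and lowest in WT replicate 3. Unlike Ddit3, the endothelial sum in KO replicate 2 lay below WT replicates 1 and 2. Macrophage markers were highest in KO replicate 3 (88.3 CPM) and lowest in KO replicate 2 (33.9 CPM). The part of these lists in the Ddit3 result was not tested.

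The major ER chaperones had lower KO means, within the spread of the WT libraries. Hspa5, the BiP chaperone that holds the sensors inactive, measured 614, 426 and 562 CPM in WT and 462, 516 and 461 CPM in KO. All KO values lay inside the WT range, whose lower end was WT replicate 2 (log2 fold change −0.16 ± 0.135, adjusted p = 0.601 in edgeR). Hsp90b1, the ER form of heat shock protein HSP90, measured 603, 450 and 594 CPM in WT and 514, 502 and 493 CPM in KO. Again only WT replicate 2 lay below the KO libraries (−0.13 ± 0.117, adjusted p = 0.63). Calr, a calcium-binding lectin chaperone, measured 655, 497 and 625 CPM in WT and 564, 588 and 556 CPM in KO, the same arrangement (−0.057 ± 0.109). Hyou1, a nucleotide exchange factor of BiP, had 97.7 ± 12.4 CPM in WT and 90.2 ± 6.89 in KO (SD, n = 3).

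Canx, the membrane-bound partner of calreticulin, measured 416, 377 and 377 CPM in WT and 357, 362 and 344 CPM in KO. All KO libraries lay below all WT libraries (−0.14 ± 0.070, adjusted p = 0.39 in edgeR). Dnajc3, a BiP cochaperone that also inhibits PERK, measured 182, 157 and 181 CPM in WT and 146, 146 and 157 CPM in KO. It was separated by 0.543 CPM, between WT replicate 2 and KO replicate 3 (−0.22 ± 0.078, adjusted p = 0.289). The other BiP cochaperones overlapped: Dnajb9 had 34.9 ± 3.84 CPM in WT and 32.6 ± 2.30 in KO, and Dnajb11 52.4 ± 4.37 and 53.9 ± 1.16. Sdf2l1, a low-level partner of Dnajb11, had 3.70 ± 1.27 and 4.44 ± 0.768 CPM (0.27 ± 0.278).

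The disulfide isomerases Pdia3, Pdia4 and Pdia6, which form and reshuffle disulfide bonds of folding proteins, were likewise lowest in WT replicate 2. Pdia6 measured 171, 116 and 157 CPM in WT and 130, 136 and 139 CPM in KO, all KO values inside the WT range (−0.13 ± 0.133). Pdia3 had 514 ± 59.2 CPM in WT and 485 ± 1.81 in KO, and Pdia4 112 ± 13.7 and 101 ± 5.61. Creld2, a stress-induced ER protein with isomerase activity, had 27.9 ± 3.94 and 31.7 ± 2.90 CPM (0.18 ± 0.120), and the secreted stress factor Manf 59.5 ± 7.80 and 65.2 ± 4.03 (0.13 ± 0.099). Adjusted p for these 5 genes lay between 0.482 and 0.701 in edgeR.

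Of 5 genes of ER-associated degradation, which returns misfolded proteins to the cytosol for the proteasome, 2 had KO libraries that all lay below the WT libraries, against 11.3% of all tested rows. Sel1l, the adaptor of the HRD1 ubiquitin ligase (chromosome 12, 91806043 to 91849157, minus strand), measured 162, 164 and 166 CPM in WT and 141, 151 and 146 CPM in KO (−0.17 ± 0.058, adjusted p = 0.282 in edgeR). Edem1, which directs mannose-trimmed glycoproteins to degradation, measured 78.6, 75.8 and 78.0 CPM in WT and 67.8, 73.6 and 71.7 CPM in KO (−0.13 ± 0.056, adjusted p = 0.352). As for Atf6, the WT libraries of both genes lay close together, with SDs of 1.73 and 1.49 CPM. Syvn1, the HRD1 ligase itself, had a higher KO mean, with 32.6 ± 2.18 CPM in WT and 36.1 ± 2.68 in KO (0.15 ± 0.084), and overlapped. Mrpl49 on the opposite strand shares 91 exon bases with Syvn1. Derl1, a channel component, had 112 ± 7.82 and 105 ± 4.22 CPM. Herpud1, a stress-induced partner of the ligase complex, measured 109, 139 and 87.8 CPM in WT and 126, 138 and 132 CPM in KO. Its KO values lay inside the wide WT range, between WT replicates 1 and 2 (0.23 ± 0.151, adjusted p = 0.483 in edgeR).

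Of the 4 ATF4 targets, none passed the adjusted threshold in edgeR, against 0.00707% of all tested rows. All 4 overlapped between groups, as did most tested rows (11.3% were non-overlapping with lower and 10.5% with higher KO values). Ppp1r15a, which encodes the phosphatase subunit GADD34 that reverses eIF2 phosphorylation, measured 47.1, 42.1 and 49.4 CPM in WT and 42.7, 37.0 and 54.5 CPM in KO. The KO libraries spanned more than the WT range on both sides (−0.046 ± 0.139), with KO replicate 2 lowest and KO replicate 3 highest, as in the early response sums (346 and 1297 CPM), whose part in this spread was not tested. Chac1, a glutathione-degrading enzyme, was counted 24, 30 and 21 times in the WT libraries and 54, 14 and 29 times in the KO libraries, so KO replicate 1 alone lay above the WT range. Its log2 fold change of 0.61 ± 0.491 was −0.078 without KO replicate 1. Trib3, a pseudokinase induced by CHOP, reached 34, 38 and 59 counts in the WT libraries against 41, 33 and 42 in the KO libraries. Counts of Asns, asparagine synthetase, were 35, 23 and 38 (WT) and 30, 27 and 31 (KO). At these depths a change of the size seen for Atf6 was not detectable for Trib3 and Asns, whose 95% intervals ran from −0.62 to 0.69 and from −0.57 to 0.74.

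Across libraries, WT replicate 2 was often the lowest. It was the lowest of the 6 libraries for 13 of the 32 genes (40.6%, against 14.2% of all tested rows). These were Hspa5, Hsp90b1, Pdia3, Pdia4, Pdia6, Calr, Creld2, Manf, Sdf2l1, Xbp1, Dnajb11, Syvn1 and Asns. WT replicate 1 was the highest for 14 genes, against 10.7% of all tested rows, among them Hspa5, Hsp90b1, Pdia3, Pdia6, Calr and Canx. Herpud1 was instead highest in WT replicate 2 (139 CPM) and lowest in WT replicate 3 (87.8 CPM). Of the 8 genes with an exact ERSE in the window, 6 were lowest in WT replicate 2, and so were 6 of the 20 genes with a window and no exact ERSE. The latter 6 include Dnajb11, which holds an ERSE-II. This split rests on exact letters, near matches were not counted, and the difference was not tested. The mean over the ATF6 arm of log2 CPM relative to the WT mean was 0.13, −0.17 and 0.039 over the WT libraries and −0.056, −0.026 and −0.063 over the KO libraries. On this scale the KO libraries lay within 0.037 of each other and between the WT libraries. The SD was larger in WT than in KO for 21 of the 32 genes (65.6%, against 44.8% of all tested rows). Red cell markers summed to 152, 20.3 and 76.0 CPM across the WT libraries and to 35.5, 31.7 and 25.6 CPM across the KO libraries. Like the arm, they were highest in WT replicate 1, next in WT replicate 3 and lowest in WT replicate 2. Other lists had this order over the WT libraries too. Adventitial fibroblast markers summed to 1506, 869 and 1407 CPM there, and macrophage markers to 66.6, 38.6 and 58.5 CPM. Plasma and B cell markers, mostly Sdc1, summed to 51.5, 44.06 and 44.55 CPM. Adventitial fibroblast markers were low in WT replicate 2 (869 CPM) and KO replicate 2 (850 CPM). The part of any of these lists in the spread was not tested.

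**Figure D4:**
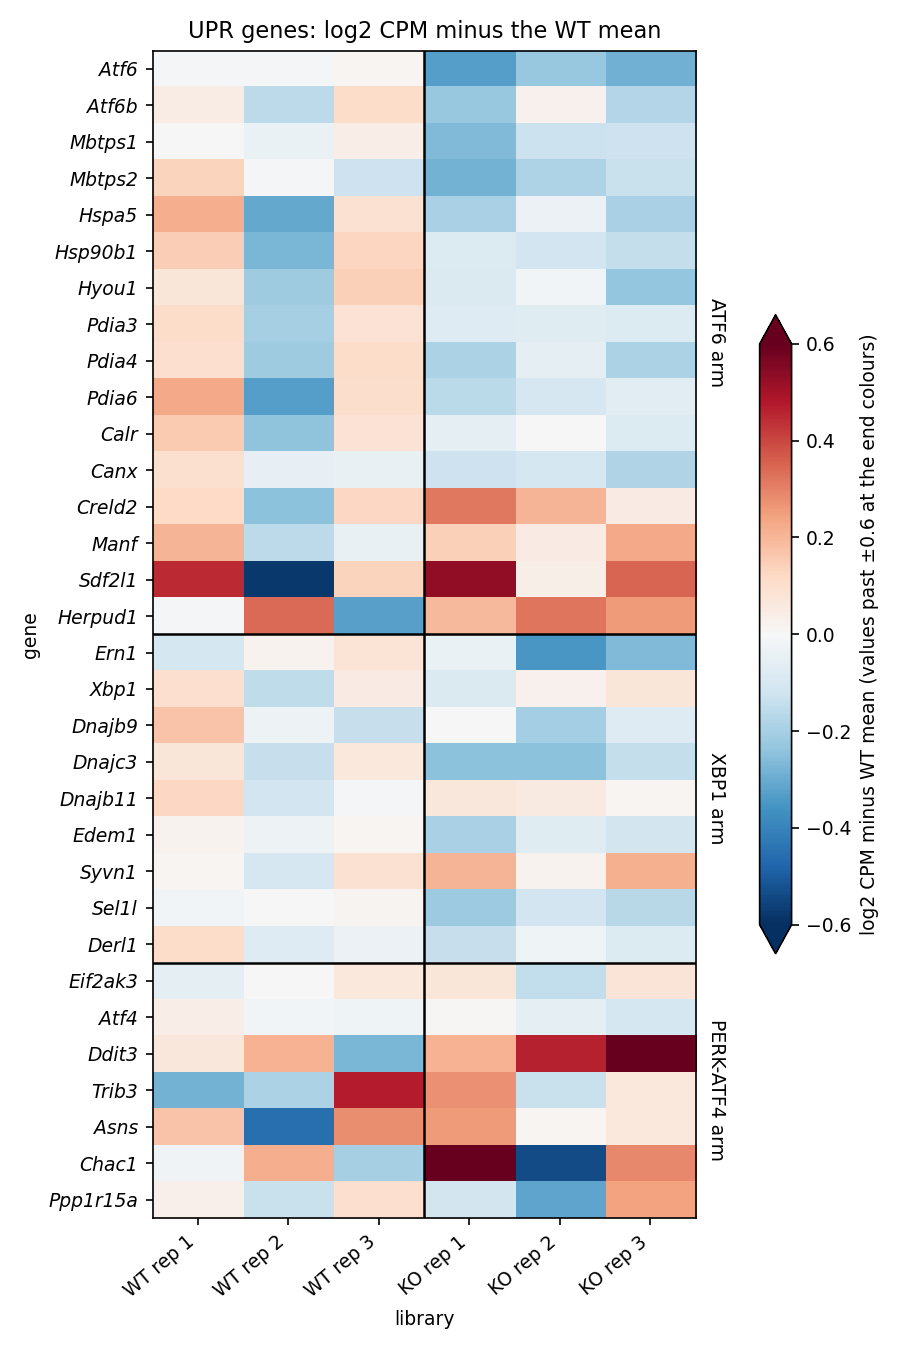
Log2 CPM of each gene minus its WT mean (colour, red above and blue below) by library (x axis) and gene (y axis, by arm). WT replicate 2 is blue for the block from Hspa5 to Calr (Hspa5 at 426 CPM against 562 and 614 in the other WT libraries). Atf6, Mbtps1 and Sel1l are blue in all 3 KO columns, as are many others, among them Mbtps2, Dnajc3, Canx, Hsp90b1 and Pdia4.

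Leaving out WT replicate 2 moved the count of non-overlapping lower genes to 15 (against 16.9% of all tested rows). Leaving out any other single library gave 6 to 9, against 13.9% (without WT replicate 3) to 17.9% (without KO replicate 2) of all tested rows. WT replicate 2 was the lowest library for 13 of the 32 genes, so leaving it out raises their WT means by construction. The values without it therefore describe its weight and are no separate support for a KO difference. Genes with an unadjusted p under 0.05 were then 9 lower (7.26% of all tested rows) and 2 higher (7.56%), with Hspa5, Hsp90b1, Hyou1, Pdia4 and Pdia6 among the 9. Hspa5 then had −0.30 ± 0.094, Hsp90b1 −0.25 ± 0.078 and Pdia6 −0.28 ± 0.074, and Herpud1, one of the 2 non-overlapping higher genes (18.2% of all tested rows), had 0.42 ± 0.105. None passed the adjusted threshold in edgeR there either (lowest adjusted p among members 0.194, for Atf6). The ATF6 arm's median was −0.20 without WT replicate 2 and −0.047 without WT replicate 1, so its size depended on these WT libraries.

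Other genes of the pathway, a list of 77 genes with 75 rows and 72 tested, are given here for comparison. Of the 72, 40 lay below 0 with a median of −0.024, beside −0.13 for the ATF6 arm (a difference that was not tested), and 0 passed in edgeR (5 lower and 4 higher at an unadjusted p under 0.05, against 7.76% and 6.8% of all tested rows). KO and WT did not overlap for 11 lower (15.3%, against 11.3% of all tested rows) and 6 higher genes (against 10.5%). DESeq2 called 2 of the 64 to which it gave an adjusted p, both lower (against 1.49% of its rows). Medians were −0.022 for 16 folding genes, −0.070 for 11 degradation genes, −0.033 for 13 translocon and signal peptidase genes, 0.022 for 28 ATF4 targets and integrated stress response genes and −0.11 for 4 membrane-bound factors related to ATF6.

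Edem3, a mannosidase that like Edem1 marks glycoproteins for degradation, was one of those called by DESeq2. It measured 101, 101 and 110 CPM in WT and 79.1, 85.7 and 86.3 CPM in KO (−0.31 ± 0.066, adjusted p = 0.239 in edgeR and 0.0266 in DESeq2). Mthfd2, a mitochondrial folate enzyme induced by ATF4, was the other. It measured 12.7, 9.34 and 18.9 CPM in WT and 7.12, 4.82 and 6.49 CPM in KO (−1.15 ± 0.269, adjusted p = 0.261 in edgeR and 0.00741 in DESeq2). Every KO library lay below every WT library for both. Sec63, which brings BiP to the translocon, was lower by −0.21 ± 0.065, and Ero1l, the oxidase that recharges disulfide isomerases, by −0.22 ± 0.077 (log2 fold changes, adjusted p = 0.277 and 0.28 in edgeR). Edem2, the mannosidase that starts the trimming, was higher in every KO library, with 23.1, 24.4 and 21.6 CPM in WT and 35.3, 25.0 and 28.3 CPM in KO (0.36 ± 0.129, adjusted p = 0.289). The 3 EDEM genes thus did not share a direction: Edem1 and Edem3 had lower and Edem2 higher values in KO.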

How the data were processed

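The authors deposited 1 table of unnormalised counts, whole numbers of reads for each gene, for 6 libraries made with a stranded poly(A) kit, per the labels' protocols. The submitters' processing notes name STAR 2.6.0c, Subread 1.6.1 with its featureCounts program, Trimmomatic 0.36 and build GRCm38. The sources used here do not give the annotation release, the strand setting or the handling of reads that map to several places or overlap several genes, which affect the counts of overlapping genes. Columns were matched to libraries by the labels' descriptions. The members and lists were chosen with earlier results of these data known, so no p was adjusted over a list alone.

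The main test was edgeR 4.0.16 in R 4.3.3 (quasi-likelihood, genotype only, TMM, filterByExpr with minimum count 10 and total 15), two-sided, adjusted over 14145 rows by Benjamini and Hochberg. CPM values are counts divided by the TMM-scaled library size and multiplied by 1000000. The 95% intervals use the standard error and the degrees of freedom of that test and are not adjusted for multiple testing. Named genes were all sensors and factors, Hspa5, Hsp90b1, members with non-overlapping libraries, the 3 of smallest p per arm, the remaining members by at least 1 value, and the 5 other pathway genes of smallest p. Alternatives were DESeq2 1.42.0 size factors, the DESeq2 test, limma-voom (limma 3.58.1), no filter, a mean count of at least 50, omission of mitochondrial and hemoglobin rows, the replicate number as a block and each library left out. All tests were run on simulated data first. Coordinates and exon lengths come from GENCODE M21 (GRCm38). With BLAST 2.17.0 (at least 95% identity over 200 bases), 1 member, Derl1, had a near-identical transcript elsewhere in that annotation.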

Additional observations from a re-analysis of the deposited data

How the results depend on the processing

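No member passed in edgeR or limma-voom under any alternative run; the DESeq2 test called 1 (Atf6, adjusted p = 0.0232), and 1 again (0.0224) on all rows above 0, a setting chosen after seeing the data. Rows called over the whole table numbered 1 as reported, 9 without a filter, 204 with DESeq2, 199 with DESeq2 on all rows above 0, 0 with the replicate block, and 0 (without WT replicate 1) to 3 (without KO replicate 2) over left-out libraries; the cause was not tested. The series text speaks of 3 pairs but does not say what libraries of 1 replicate number share. The correlation of deviations between WT and KO was 0.11, 0.13 and −0.056 for numbers 1, 2 and 3. WT replicate 2 correlated best with its own number, and WT replicates 1 and 3 did not. With 3 libraries per group these values cannot show whether the libraries were paired, and the main test did not use a pairing. Over left-out libraries the median log2 fold change lay between −0.12 and −0.023 for the XBP1 arm and between −0.059 and 0.24 for the PERK-ATF4 arm, lowest without WT replicate 2 for both and highest without WT replicate 1 and WT replicate 3. Of the members, 8 changed sign under at least 1 alternative, Chac1 (0.61 as reported) among them. Xbp1 had −0.0018 with DESeq2 size factors, −0.0016 with the DESeq2 test, −0.0061 with it on all rows and −0.010 without a filter, and Eif2ak3 had −0.0044 with DESeq2 on all rows and −0.0088 without a filter. Over left-out libraries the range was −0.17 to 0.023 for Calr, −0.071 to 0.055 for Xbp1, −0.015 to 0.11 for Dnajb11, −0.035 to 0.075 for Eif2ak3, −0.10 to 0.33 for Trib3, −0.12 to 0.24 for Asns, −0.078 to 0.97 for Chac1 and −0.22 to 0.075 for Ppp1r15a. The other 24 members kept their sign under every alternative that gave a value. A mean count of at least 50 left out Trib3, Asns and Chac1.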

Other observations

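Outside the 32 genes, 9 tested genes had an exact ERSE in the promoter window, and none of them is in the list of other pathway genes. They were chosen by the motif alone, after the members' values had been seen. None passed in edgeR, nor in DESeq2 where it gave an adjusted p. Hnrnpa3, an RNA-binding protein of the spliceosome, averaged 207 CPM in WT and 189 in KO (log2 fold change −0.13 ± 0.058, SE), and Adcy3, an adenylyl cyclase, 60.3 and 55.2 CPM (−0.13 ± 0.061). In both, all KO libraries lay below all WT libraries (against 11.3% of all tested rows), and the other 7 overlapped. Of the 9 log2 fold changes, 6 lay above 0 and 3 below. Alg12, a mannosyltransferase of ER glycan assembly, averaged 10.7 CPM in WT and 11.9 in KO (0.15 ± 0.103) and overlapped. Counts of Alg12 in WT replicates 1, 2 and 3 were 274, 261 and 248.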
